A study of Solanum lycopersicum with 24 samples.

Results

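Reactive oxygen species form in leaves whenever light is absorbed faster than carbon can be fixed, which happens in dry and in hot plants. Superoxide dismutases turn superoxide into hydrogen peroxide, with iron or with copper and zinc at the active site. Ascorbate peroxidase then reduces the peroxide at the cost of ascorbate, dehydroascorbate reductase regenerates ascorbate with glutathione, and glutathione transferases and peroxidases use glutathione directly. The enzymes described here are 5 genes of this system, seen through 6 probe sets of a tomato (Solanum lycopersicum) array. They were the probe sets that the authors' deposited fold-change tables name as SODCP.2, FESOD, APX1, DHAR1 or BI-GST/GPX, or whose title contains superoxide dismutase. SODCP.2 is the RefSeq symbol of a gene that those tables list as LOC543981, with the title superoxide dismutase. All 6 are included, of 10101 probe sets tested, and the 5 genes are among 411 that those tables name, on 459 probe sets with a single gene symbol.

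FESOD is an iron superoxide dismutase and SODCP.2 a copper-zinc superoxide dismutase of the chloroplast. APX1, a cytosolic ascorbate peroxidase, has 2 probe sets, here called APX1-a and APX1-b, and the letters of other genes likewise tell apart probe sets of 1 gene, whose identifiers stand in the plots. DHAR1 is a dehydroascorbate reductase. BI-GST/GPX is a glutathione transferase with peroxidase activity, known from a screen in yeast for plant proteins that block Bax-induced death. Its probe set has a suffix that marks possible matches to related transcripts.

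Leaves were sampled at the flowering stage from 8 groups of 3 arrays each. The drought experiment held tolerant plants kept 7 days without water and their watered controls, then susceptible plants kept 7 days without water and their watered controls. The heat experiment held tolerant plants kept at 40 C for 60 min and their unheated controls, then susceptible plants kept at 40 C for 60 min and their unheated controls. The labels name the genotypes only as drought or heat tolerant and susceptible, and do not say whether both experiments used the same ones, nor that replicates came from separate plants. The p-values thus cover only how these samples varied, possibly for technical reasons, and the number of arrays limits the precision. In whole leaves, fewer cells of a type and less RNA per cell cannot be told apart.

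These genes were in the tables because their response differed between the genotypes. The drought table named FESOD, SODCP.2, both APX1 probe sets and BI-GST/GPX, and the heat table named DHAR1. Each table was restricted to probe sets with a genotype by treatment effect and a fold change of at least 2 in at least 1 genotype. The responses in the experiment that named a gene, and their difference, are therefore described without a test. Heat responses of the 5 probe sets from the drought table, drought responses of DHAR1, and differences between genotypes averaged over stressed and control plants were not used in that choice and were tested with limma. In the authors' deposited table, the larger fold change of the 2 genotypes was smallest for APX1-a, at 2.83, and next for DHAR1, at 2.88. Probe sets outside the tables have no gene name here, so none just below the threshold can be named.

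The arrays themselves differed between groups. Replicate arrays correlated at 0.919 to 0.963 in tolerant and at 0.9974 or higher in susceptible groups of the drought experiment, and at 0.946 to 0.998 in tolerant and 0.9967 or higher in susceptible groups of the heat experiment. Signal of bioB, a bacterial spike-in control, averaged 10.84 to 11.44 in tolerant and 5.75 to 5.97 in susceptible drought groups, so genotype and array handling cannot be told apart there. The 3' minus 5' signal of gapdh, actin and ef1a, a measure of RNA integrity, averaged 1.64 to 2.89 in tolerant and 0.745 to 1.25 in susceptible drought groups, and 4.13 to 4.45 in tolerant and 3.15 to 3.58 in susceptible heat groups. Among the heat arrays, replicate 3 of the unheated tolerant controls stood apart, with the lowest mean correlation with the other replicates, at 0.957. Values without it are given where they matter. Mean correlations were lower in the droughted tolerant arrays, at 0.925 to 0.936, and in replicate 3 of the watered tolerant plants, at 0.953. The 10 leaf marker probe sets averaged 9.69 to 10.85 in all groups, and 5 flower and pollen probe sets averaged 4.62 to 6.92. The flower and pollen mean was 6.30 in watered and 6.92 in droughted tolerant plants, against 5.04 in watered and 4.62 in droughted susceptible plants. In each group 1 to 3 of these 5 were as dim as probe sets for genes foreign to tomato, used below as a background. Its part in the genotype differences was not tested. No fruit ripening marker was found among the named probe sets. Every marker probe set here came from the deposited tables, so each had been chosen for a response that differed between genotypes. How the markers moved with stress was thus partly fixed by that choice. The 9 probe sets for dividing cells, cyclins, their kinases and histones, moved with stress. They averaged 7.04 in droughted against 9.24 in watered tolerant plants, and 5.93 in droughted against 8.96 in watered susceptible plants. In droughted tolerant plants 4 of the 9 were as dim as that background. With heat the 9 averaged 8.63 in heated against 9.70 in unheated tolerant plants, and 8.36 in heated against 9.01 in unheated susceptible plants. They were thus lower in stressed plants of all 4 pairs, beside every response given here, and their part in those responses was not tested.

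Iron superoxide dismutase stood at opposite ends of its range in the droughted plants of both genotypes, and rose in both genotypes under heat. All levels are log2 values per probe set. FESOD was at 8.79, 8.76 and 8.29 in droughted tolerant plants, against 9.54, 9.41 and 9.56 in watered tolerant plants. It was at 11.22, 11.29 and 11.28 in droughted susceptible plants, against 9.26, 9.23 and 9.15 in watered susceptible plants. The droughted arrays lay wholly below their controls in tolerant plants and wholly above them in susceptible plants. Stressed minus control was -0.89 ± 0.13 (SE) in tolerant and 2.05 ± 0.13 in susceptible plants, and the responses differed by -2.94 ± 0.19. These values chose the gene.

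Under heat, FESOD was at 10.28, 10.13 and 10.50 in heated tolerant plants, against 9.03, 9.18 and 8.79 in unheated tolerant plants. It was at 9.95, 10.01 and 9.95 in heated susceptible plants, against 9.30, 9.14 and 9.11 in unheated susceptible plants. No heated array overlapped its controls. The rise was 1.30 ± 0.13 in tolerant plants (limma, Benjamini-Hochberg adjusted p = 1.88e-05) and 0.78 ± 0.13 in susceptible plants (limma, adjusted p = 0.00102). The rises differed by 0.52 ± 0.18, which missed the threshold (limma, adjusted p = 0.0547) and passed it without replicate 2 of the unheated tolerant controls (0.61, adjusted p = 0.0205) or of the heated tolerant plants (0.61, adjusted p = 0.0421). Without replicate 3 of the unheated tolerant controls the rise in tolerant plants was 1.20 (limma, adjusted p = 2.12e-05).

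Over the 8 groups, FESOD group means spanned 2.65 on the log2 scale. Droughted susceptible plants stood highest, followed by heated tolerant and heated susceptible plants, and the arrays of each lay apart from those of the group below. Watered tolerant plants came next and were also apart from the group below. Watered susceptible, unheated susceptible, unheated tolerant and droughted tolerant plants followed, with arrays that overlapped between neighbours. Averaged over droughted and watered plants, the level in tolerant minus susceptible plants was -1.18 ± 0.09 (limma, adjusted p = 1.93e-06). That mean combines -2.65 in droughted plants with 0.29 in watered plants. In the heat experiment the genotypes differed by 0.07 ± 0.09 (limma, adjusted p = 0.499).

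The chloroplast copper-zinc enzyme was lower in droughted plants of both genotypes, and its heat responses did not pass the test. SODCP.2 was at 9.27, 9.92 and 9.57 in droughted tolerant plants, against 11.38, 11.44 and 11.33 in watered tolerant plants. It was at 10.76, 10.92 and 10.89 in droughted susceptible plants, against 11.66, 11.66 and 11.68 in watered susceptible plants. Droughted arrays lay below all controls in both genotypes, and the droughted tolerant plants lowest of all. The drought response was -1.80 ± 0.15 in tolerant and -0.81 ± 0.15 in susceptible plants, a difference of -0.99 ± 0.21. The mean of the leaf marker probe sets, themselves chosen for responses that differed between genotypes, moved with it. That mean was 9.69 in droughted against 10.85 in watered tolerant plants, and 10.01 in droughted against 10.51 in watered susceptible plants. Its part in the result was not tested.

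In the heat experiment SODCP.2 was at 11.63, 11.59 and 11.85 in heated tolerant plants, against 11.54, 11.89 and 10.47 in unheated tolerant plants. It was at 11.90, 12.00 and 11.85 in heated susceptible plants, against 12.19, 12.15 and 12.20 in unheated susceptible plants. The tolerant groups overlapped, and their control mean rested on the low value of replicate 3. The response was 0.39 ± 0.27 in tolerant plants (limma, adjusted p = 0.242). It was -0.021 without that replicate (limma, adjusted p = 0.893) and 0.69 without replicate 2 of the same group (limma, adjusted p = 0.0287). In susceptible plants, whose heated arrays lay below all controls, it was -0.26 ± 0.27 (limma, adjusted p = 0.603), and the same difference was called when only the 6 susceptible arrays set the spread (limma, adjusted p = 0.0202). The responses differed by 0.65 ± 0.39 (limma, adjusted p = 0.218), or by 0.95 without replicate 2 of the unheated tolerant controls (limma, adjusted p = 0.0347) and 0.24 without replicate 3 (limma, adjusted p = 0.271).

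SODCP.2 levels were lower in tolerant plants of both experiments. The difference was -0.78 ± 0.10 in the drought experiment (limma, adjusted p = 7.91e-05), made up of -1.27 in droughted and -0.28 in watered plants. It was -0.55 ± 0.19 in the heat experiment (limma, adjusted p = 0.0311), made up of -0.22 in heated and -0.88 in unheated plants. The heat value lost its call in 7 of 12 fits that left out 1 array, none of them an unheated tolerant control, with adjusted p up to 0.0662. Without replicate 3 of the unheated tolerant controls it was -0.35 (limma, adjusted p = 0.00392).

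**Figure D1:**
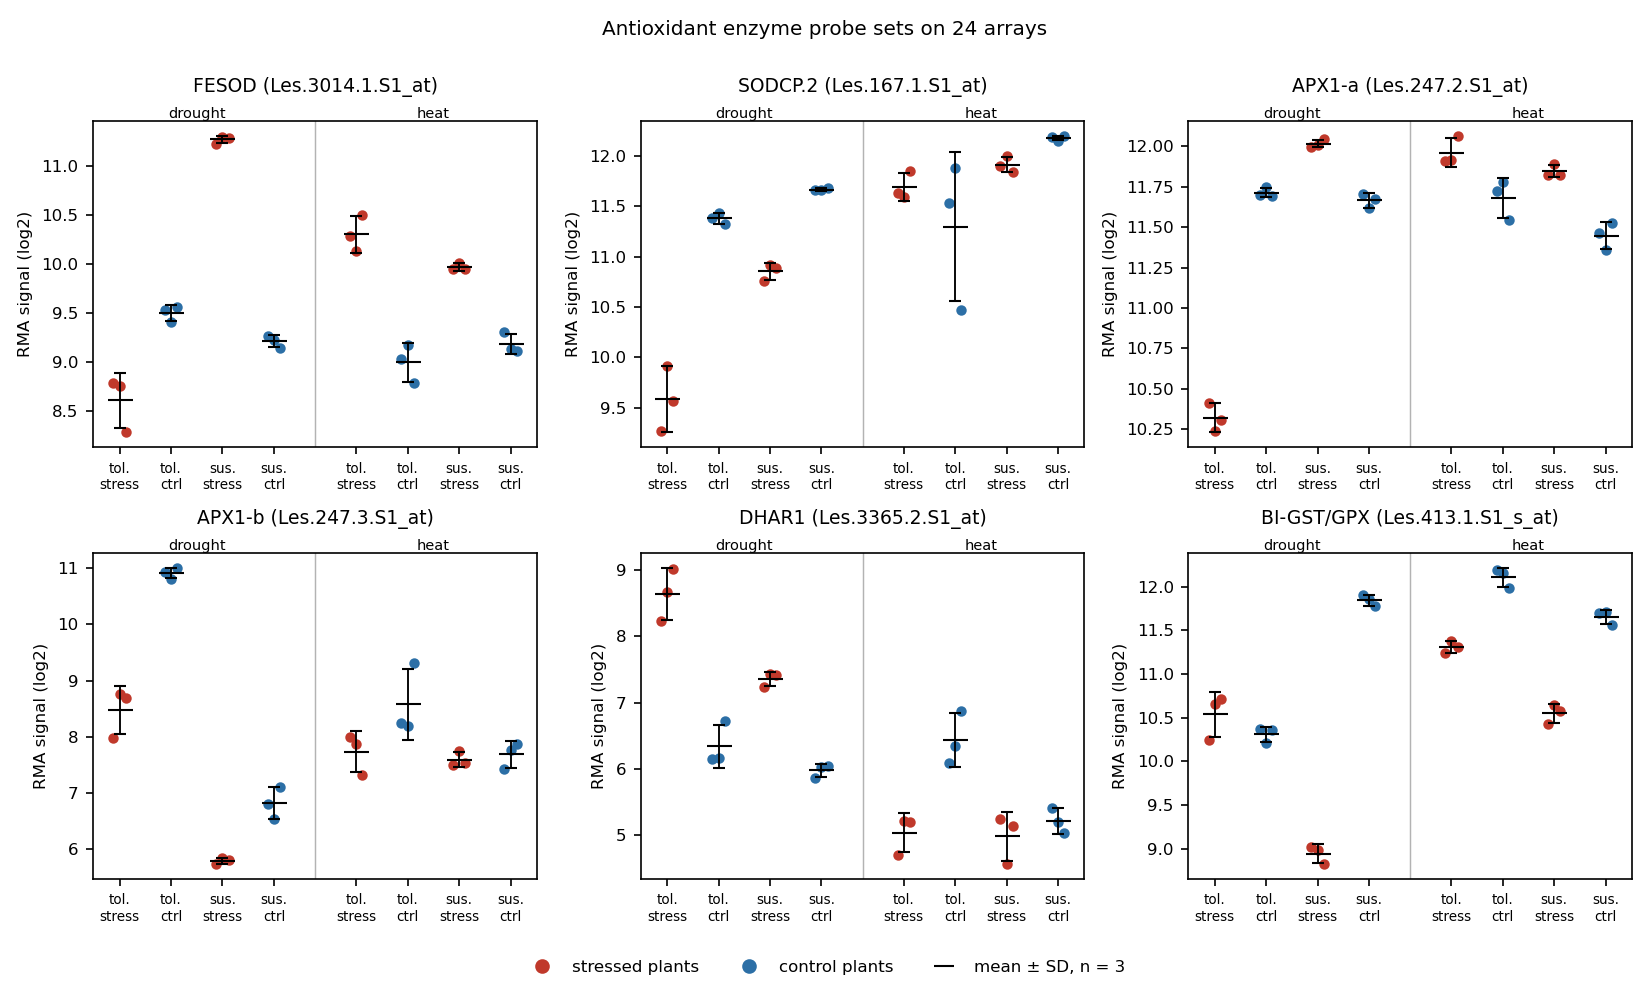
RMA signal on a log2 scale of the 6 probe sets on every array, with stressed plants in red left of their controls in blue, tolerant before susceptible groups, and the mean ± SD of 3 arrays in black. FESOD is highest in droughted susceptible plants and lowest in droughted tolerant plants, while SODCP.2 is lowest in droughted tolerant plants.

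The 2 superoxide dismutases were also compared within each array, where differences in loading cancel. Signals of different probe sets have no common scale, so only the change of this difference can be read. FESOD minus SODCP.2 was -0.48, -1.16 and -1.28 in droughted tolerant plants, against a mean of -1.88 ± 0.13 (SD, n = 3) in watered tolerant plants. It averaged 0.41 ± 0.05 in droughted susceptible plants, against -2.45 ± 0.07 in watered susceptible plants. Their change under stress was therefore 0.91 in tolerant and 2.86 in susceptible plants. With heat the difference averaged -1.39 ± 0.06 in heated tolerant plants, against -2.51, -2.71 and -1.68 in unheated tolerant plants, a change of 0.91, or 1.22 without replicate 3 of these controls. It averaged -1.95 ± 0.04 in heated susceptible plants, against -2.99 ± 0.10 in unheated susceptible plants, a change of 1.05. In all 4 pairs of groups the stressed arrays lay above every control array. The drought values were part of what chose both genes, and no test is given.

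**Figure D2:**
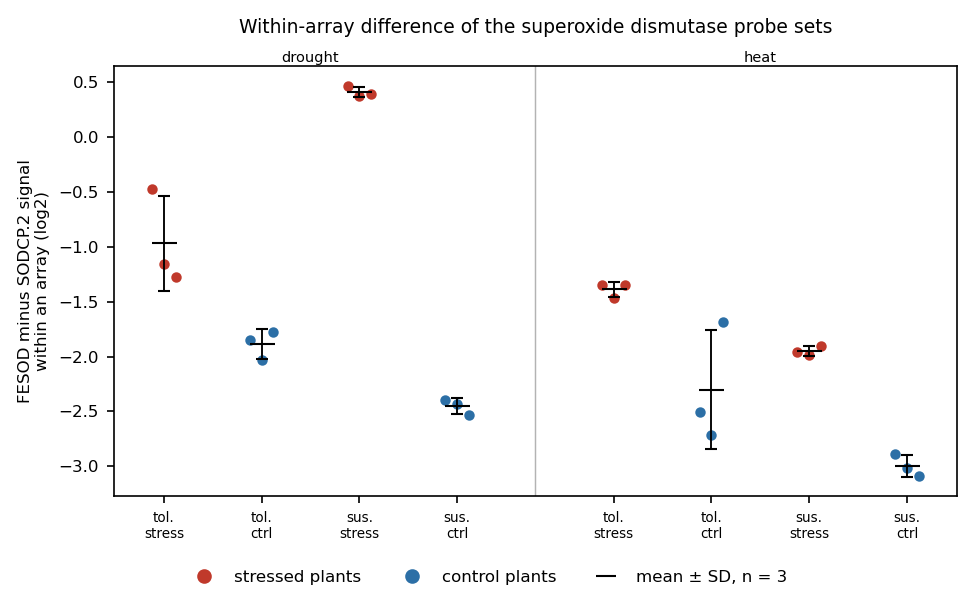
Difference between the FESOD and SODCP.2 signals within an array, on a log2 scale, for 3 arrays of each group with mean ± SD, stressed plants left of their controls. The stressed arrays lie above their controls in all 4 pairs, and the change is 2.86 in droughted susceptible plants against 0.91 to 1.05 in the other pairs.

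Ascorbate peroxidase 1 was measured by 2 probe sets that disagreed. On APX1-a, droughted tolerant plants were at 10.42, 10.24 and 10.31, against 11.70, 11.75 and 11.70 in watered tolerant plants. Droughted susceptible plants were at 12.00, 12.01 and 12.04, against 11.71, 11.62 and 11.67 in watered susceptible plants. The droughted arrays lay below their controls in tolerant and above them in susceptible plants, as for FESOD. The response was -1.39 ± 0.08 in tolerant and 0.35 ± 0.08 in susceptible plants, a difference of -1.74 ± 0.12. On APX1-b, droughted tolerant plants were at 7.98, 8.76 and 8.69, against 10.94, 10.81 and 11.00 in watered tolerant plants. Droughted susceptible plants were at 5.73, 5.83 and 5.80, against 6.80, 6.54 and 7.11 in watered susceptible plants. Here the droughted arrays lay below their controls in both genotypes, with stressed minus control at -2.44 ± 0.21 in tolerant and -1.03 ± 0.21 in susceptible plants, a difference of -1.42 ± 0.29.

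The genotype difference over droughted and watered plants also set these 2 probe sets apart in the drought experiment, where it had opposite signs. APX1-a was lower in tolerant plants, with a difference of -0.82 ± 0.06 (limma, adjusted p = 8.81e-07). That mean combines -1.70 in droughted plants with 0.05 in watered plants, whose arrays overlapped. APX1-b was higher in tolerant plants by 3.39 ± 0.15 (limma, adjusted p = 2.59e-08), with 2.69 in droughted and 4.10 in watered plants. In the heat experiment the differences were 0.17 ± 0.07 for APX1-a (limma, adjusted p = 0.0545) and 0.52 ± 0.20 for APX1-b (limma, adjusted p = 0.0443). The first was called without replicate 3 of the unheated tolerant controls (0.21, adjusted p = 0.0117). The second lost its call in 8 of 12 fits that left out 1 array (adjusted p up to 0.103), and was 0.34 without that same control (limma, adjusted p = 0.0463). With all arrays it combined 0.14 in heated plants, whose arrays overlapped, with 0.89 in unheated plants. APX1-b minus APX1-a within an array averaged -1.85 ± 0.51 in droughted and -0.80 ± 0.12 in watered tolerant plants, and -6.23 ± 0.05 in droughted and -4.85 ± 0.26 in watered susceptible plants (SD, n = 3). The genes APX1 and APX2 are next to each other in the RefSeq gene table, with 0 genes between them.

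With heat, APX1-a was at 11.91, 11.91 and 12.06 in heated tolerant plants, against 11.72, 11.78 and 11.54 in unheated tolerant plants. It was at 11.82, 11.89 and 11.82 in heated susceptible plants, against 11.46, 11.36 and 11.52 in unheated susceptible plants. Heated arrays lay above their controls in both genotypes. The rise was 0.40 ± 0.10 in susceptible plants (limma, adjusted p = 0.0148), but the call was lost without replicate 2 of the unheated (0.35, adjusted p = 0.0769) or heated susceptible plants (0.38, adjusted p = 0.0529). In tolerant plants it was 0.28 ± 0.10 (limma, adjusted p = 0.0353), which became 0.0004 when each array was centred on its median (limma, adjusted p = 0.997) and lost its call in 8 of 12 fits that left out 1 array (adjusted p up to 0.0932). The responses differed by -0.12 ± 0.14 (limma, adjusted p = 0.54).

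APX1-b went the other way in heated tolerant plants, which were at 8.00, 7.88 and 7.32, against 8.24, 8.19 and 9.30 in unheated tolerant plants. Heated susceptible plants were at 7.49, 7.74 and 7.52, against 7.42, 7.76 and 7.88 in unheated susceptible plants. All heated tolerant arrays lay below their controls, and the susceptible groups overlapped. The change in tolerant plants was -0.85 ± 0.28 (limma, adjusted p = 0.026). It was no longer called without replicate 3 of the unheated tolerant controls (-0.48, adjusted p = 0.0603) or of the heated tolerant plants (-0.64, adjusted p = 0.1). In susceptible plants the change was -0.10 ± 0.28 (limma, adjusted p = 0.874), and the responses differed by -0.75 ± 0.40 (limma, adjusted p = 0.174), or by -0.38 without replicate 3 of the unheated tolerant controls (limma, adjusted p = 0.288).

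**Figure D3:**
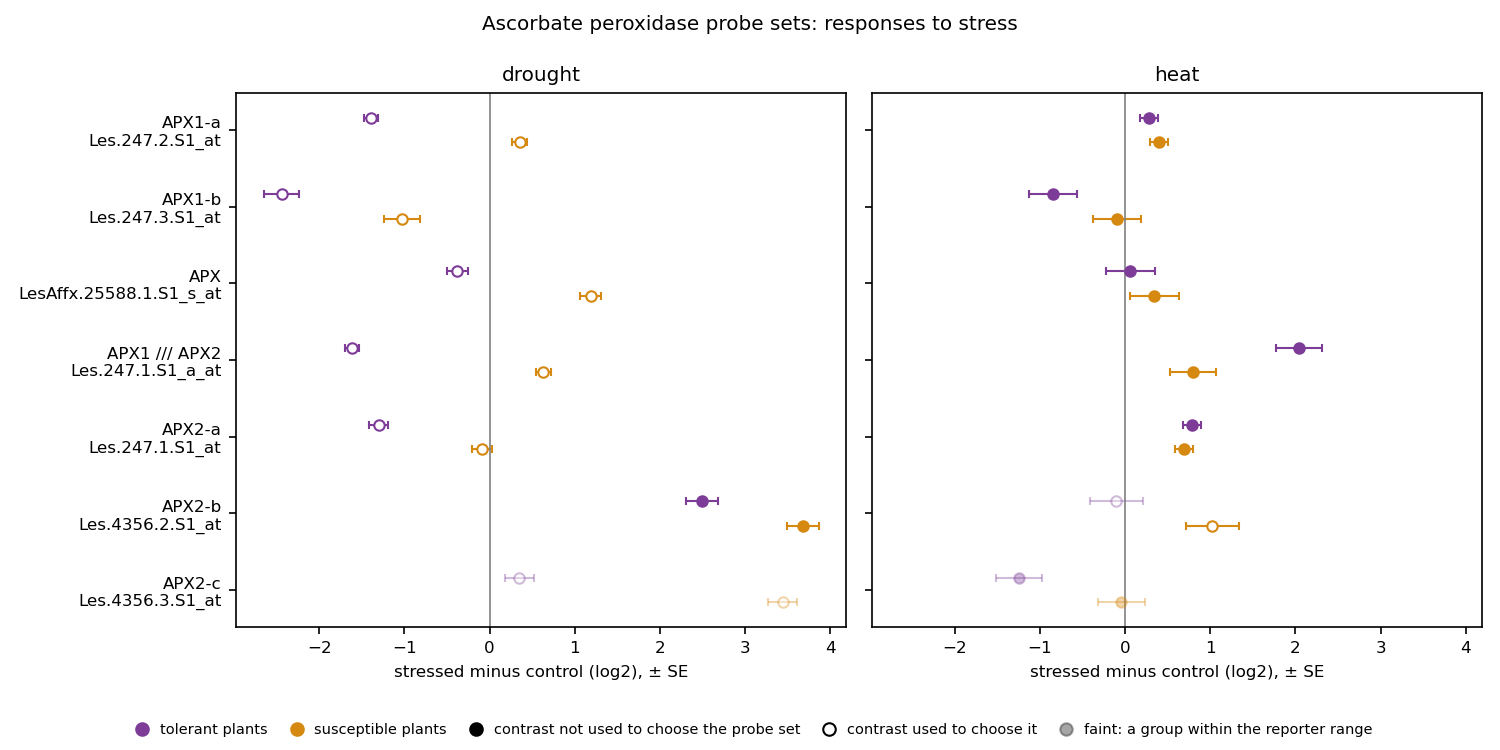
Stressed minus control on a log2 scale, with its standard error, for the 7 ascorbate peroxidase probe sets of the named genes, with tolerant plants in purple above susceptible plants in orange. Open points belong to contrasts that chose the probe set, and faint points to groups as dim as the probe sets for foreign reporter genes. The 2 probe sets of APX1 differ in susceptible plants under drought, at 0.35 and -1.03.

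Other ascorbate peroxidase probe sets showed further patterns. APX2-a, a cytosolic relative, rose under heat by 0.79 ± 0.11 in tolerant (limma, adjusted p = 0.000159) and by 0.69 ± 0.11 in susceptible plants (limma, adjusted p = 0.000565). A probe set that the tables assign to both APX1 and APX2 rose by 2.04 ± 0.27 in heated tolerant plants (limma, adjusted p = 0.000163). It changed by 0.80 ± 0.27 in heated susceptible plants (limma, adjusted p = 0.0623), and its responses differed by 1.24 ± 0.39 (limma, adjusted p = 0.0356). The change in susceptible plants was called in 3 of 12 fits that left out 1 array, and the difference of responses lost its call in 8 of 12 (adjusted p up to 0.0763). APX2-b, with the same gene symbol, rose under drought by 2.50 ± 0.19 in tolerant (limma, adjusted p = 3.17e-06) and 3.68 ± 0.19 in susceptible plants (limma, adjusted p = 1.96e-07). Probe sets that share the name APX2 thus did not share a drought response, since APX2-a was at -1.30 in tolerant and -0.09 in susceptible plants, values that had chosen it.

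Dehydroascorbate reductase rose in droughted plants of both genotypes. DHAR1 was at 8.24, 8.67 and 9.02 in droughted tolerant plants, against 6.15, 6.16 and 6.72 in watered tolerant plants. It was at 7.24, 7.43 and 7.41 in droughted susceptible plants, against 5.87, 6.02 and 6.05 in watered susceptible plants. Every droughted array lay above every watered array. The rise was 2.30 ± 0.21 in tolerant (limma, adjusted p = 1.08e-05) and 1.38 ± 0.21 in susceptible plants (limma, adjusted p = 0.000407). It was larger in tolerant plants by 0.92 ± 0.30 (limma, adjusted p = 0.0331), a call that was lost in 10 of 12 fits that left out 1 array, with values of 0.73 to 1.13 and adjusted p up to 0.0783. It was kept without replicate 1 of the droughted or replicate 3 of the watered tolerant plants. Averaged over droughted and watered plants, tolerant plants were higher by 0.82 ± 0.15 (limma, adjusted p = 0.000624), made up of 1.28 in droughted and 0.36 in watered plants.

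In the heat experiment, where it was chosen, DHAR1 was at 4.69, 5.22 and 5.20 in heated tolerant plants, against 6.09, 6.34 and 6.87 in unheated tolerant plants. It was at 5.24, 4.56 and 5.13 in heated susceptible plants, against 5.41, 5.19 and 5.03 in unheated susceptible plants. Only the unheated tolerant plants stood above the rest. Stressed minus control was -1.40 ± 0.24 in tolerant and -0.23 ± 0.24 in susceptible plants, a difference of -1.16 ± 0.34. Probe sets for reporter genes, which are foreign to tomato, served as a background, with its upper edge set at their percentile 95 on each array. In 3 of these groups 1 array of DHAR1 did not exceed that edge. The edge reached 6.83 among the unheated tolerant controls, whose replicate 3 was the brightest in DHAR1, and without it the response of tolerant plants was -1.18. The authors' deposited table gives 2.88-fold down in tolerant and 1.05-fold up in susceptible plants, so the sign in susceptible plants differed from the value here. Averaged over heated and unheated plants, tolerant plants were higher by 0.64 ± 0.17 (limma, adjusted p = 0.00827). That mean combines 0.06 in heated plants, whose arrays overlapped, with 1.22 in unheated plants, and both enter the contrasts that chose the gene.

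The glutathione transferase BI-GST/GPX fell under heat in both genotypes. It was at 11.25, 11.38 and 11.31 in heated tolerant plants, against 12.19, 12.16 and 11.99 in unheated tolerant plants. It was at 10.43, 10.64 and 10.58 in heated susceptible plants, against 11.69, 11.71 and 11.56 in unheated susceptible plants. No heated array overlapped its controls. Stressed minus control was -0.80 ± 0.10 in tolerant (limma, adjusted p = 0.000119) and -1.10 ± 0.10 in susceptible plants (limma, adjusted p = 1.45e-05), and the responses differed by 0.31 ± 0.14 (limma, adjusted p = 0.13). Tolerant plants were higher by 0.61 ± 0.07 over heated and unheated plants (limma, adjusted p = 7.99e-05).

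Under drought, which chose it, BI-GST/GPX was at 10.25, 10.66 and 10.71 in droughted tolerant plants, against 10.37, 10.21 and 10.36 in watered tolerant plants. It was at 9.02, 8.99 and 8.83 in droughted susceptible plants, against 11.90, 11.86 and 11.78 in watered susceptible plants. The tolerant groups overlapped, and the droughted susceptible arrays were the lowest of all. Stressed minus control was 0.23 ± 0.13 in tolerant and -2.90 ± 0.13 in susceptible plants, a difference of 3.13 ± 0.19. The genotypes averaged to a difference of 0.03 ± 0.09 (limma, adjusted p = 0.787), which combines 1.59 in droughted with -1.53 in watered plants.

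**Figure D4:**
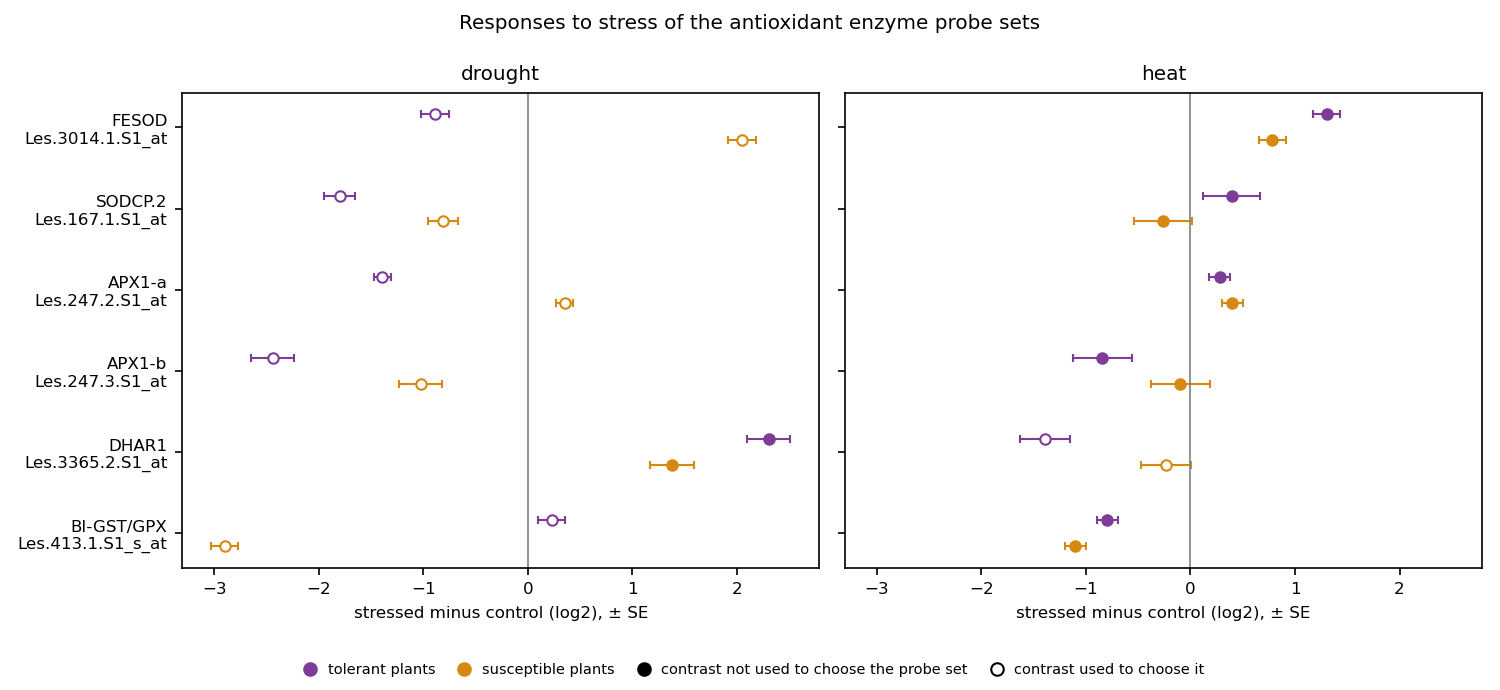
Stressed minus control on a log2 scale, with its standard error, for the 6 probe sets under drought and under heat, with tolerant plants in purple above susceptible plants in orange. Open points belong to contrasts that chose the probe set and filled points to the others. BI-GST/GPX is near 0 in droughted tolerant plants and at -2.90 in droughted susceptible plants, and lies below 0 in both genotypes under heat.

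Counted together, the 6 probe sets had 1 called higher and 4 called lower in droughted tolerant plants, where 27.4% of all 10101 probe sets were called higher and 23.2% lower. They had 3 higher and 3 lower in droughted susceptible plants, where 23.1% of all probe sets were called higher and 19.7% lower. The difference of drought responses was called for all 6, where 37.2% of all were called. Since 5 of 6 were chosen on these contrasts, nothing is read from these counts or from the medians that follow. The median response of the 6 was -1.14 in tolerant and -0.23 in susceptible plants, beside 0.11 and 0.05 over all probe sets. The genotype difference in the drought experiment was called for 2 higher and 3 lower of 6, where 43.2% of all probe sets were called higher and 30.1% lower in tolerant plants.

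In the heat experiment the 5 probe sets not chosen there gave 2 calls higher and 2 lower in tolerant plants, where 29.6% of all probe sets were called higher and 25.5% lower. They gave 2 higher and 1 lower in susceptible plants, where 12.1% were called higher and 9.15% lower. Without replicate 3 of the unheated tolerant controls the 5 gave 1 call higher and 1 lower in tolerant plants. The shares over all probe sets in that fit were 29.5% higher and 24.6% lower. None of the 5 was called for the difference of heat responses with limma, 1 had an unadjusted p under 0.05, and 27.6% of all probe sets were called. The genotype difference was called for 3 higher and 1 lower of all 6, where 31.6% of all were called higher and 25.9% lower. The median heat response of the 5 was 0.28 in tolerant and -0.10 in susceptible plants, beside 0.01 and -0.0004 over all probe sets. Centring the arrays on their medians shifted every heat response by -0.28 in tolerant and by -0.10 in susceptible plants. It moved the share of higher calls in all probe sets to 30.8% from 53.8% in tolerant plants and to 42.9% from 57.0% in susceptible plants. It also moved that share to 40.4% from 56.2% for the difference of responses and to 67.0% from 55.0% for the genotype difference.

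In the authors' deposited table for drought, fold changes in tolerant and susceptible plants were 2.08 down and 3.48 up for FESOD. The same authors' deposited table gives SODCP.2 as 3.28 down in tolerant and 1.68 down in susceptible plants. For BI-GST/GPX the authors' deposited table gives 1.10 up in tolerant and 7.21 down in susceptible plants. The authors' deposited table lists APX1-a as 1.74 up in susceptible plants, where the means here gave a 1.28-fold higher level, and on APX1-b as 3.72 down in tolerant plants, where they gave a 5.43-fold lower level.

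The named genes whose 8 group means ran most like each enzyme differed from gene to gene. These are Pearson correlations over group means that share arrays and normalization, given as a description. All the genes compared had been chosen for a response that differed between genotypes, and the group means include values that chose them. SODCP.2 ran with genes of the photosynthetic apparatus, CAB4 (0.98), PsbQ (0.97) and psbX (0.95), of which the first is a chlorophyll-binding protein. FESOD ran with LOC543581, titled ER33 protein (0.96), the ethylene-forming oxidase ACO1 (0.90) and the calmodulin CALM1LE (0.87). For APX1, APX1-a ran with RAN2B (0.98), LOC544001 (0.96) and the transcription factor THM27 (0.95), and APX1-b with fsm1 (0.93), the laccase LOC100147721 (0.92) and lanceolate (0.92). DHAR1 ran with the kinase Pdk1 (0.92), tVPS41 (0.90) and the annexin AN34 (0.86). BI-GST/GPX ran with the endoglucanase Cel1 (0.95), TDR6 (0.93) and LOC778303 (0.91). Among the enzymes themselves, correlations ran from -0.96 for SODCP.2 and DHAR1 to 0.72 for SODCP.2 and APX1-a. FESOD correlated at 0.71 with APX1-a and at 0.19 with SODCP.2.

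Other antioxidant and redox genes were taken from a list of symbol and title patterns, which matched 24 named probe sets. Of these 22 were counted, for 18 symbols, after cevi19 and cevi57 were left out because their titles name a lipid desaturase and a proteinase inhibitor. The 22 include RBOH1 and Wfi1, oxidases that produce reactive oxygen, so they are not antioxidant enzymes alone. In droughted plants 3 were called higher and 9 lower in tolerant plants, and 12 higher and 3 lower in susceptible plants, beside the 27.4% higher and 23.2% lower in tolerant and 23.1% higher and 19.7% lower in susceptible plants over all probe sets. Medians were -0.13 in tolerant and 0.70 in susceptible plants, beside 0.11 and 0.05 over all probe sets. Most of these had been chosen on their drought responses. The 6 that only the heat table names gave 2 higher and 1 lower in tolerant and 2 higher and 0 lower in susceptible plants.

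Under heat, the 14 probe sets that only the drought table names gave 5 higher and 2 lower calls in tolerant plants, and 2 higher and 0 lower in susceptible plants, where 1 of 14 was lower at an unadjusted limma p under 0.05. Over all probe sets 29.6% were called higher and 25.5% lower in tolerant plants, and 12.1% higher and 9.15% lower in susceptible plants, so these counts were close to the background. Without replicate 3 of the unheated tolerant controls the 14 gave 5 higher and 3 lower in tolerant, and 4 higher and 1 lower in susceptible plants. In that fit the shares over all probe sets were 29.5% higher and 24.6% lower in tolerant plants. For susceptible plants they were 17.1% higher and 14.2% lower. Both lower calls in tolerant plants with all arrays, RBOH1 and APX2-c, were as dim as the reporter probe sets in heated and unheated plants alike. The catalase cat1, which splits hydrogen peroxide, rose by 0.56 ± 0.16 in heated tolerant plants (limma, adjusted p = 0.0136), or by 0.33 without replicate 3 of the unheated tolerant controls (limma, adjusted p = 0.00414). It changed by -0.23 ± 0.16 in heated susceptible plants (limma, adjusted p = 0.414), which was called without that control (limma, adjusted p = 0.0256). The responses differed by 0.79 ± 0.23 (limma, adjusted p = 0.0279), a call lost in 6 of 12 fits that left out 1 array (adjusted p up to 0.0649). The metallothionein MT4 rose by 0.94 ± 0.29 in heated tolerant plants (limma, adjusted p = 0.0183), by 0.49 without replicate 3 of the unheated controls (limma, adjusted p = 0.00146), and was not called without replicate 3 of the heated plants (limma, adjusted p = 0.0549).

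The largest changes in that list were mostly in genes chosen on the same contrast. CrtR-b2, a carotene hydroxylase of xanthophyll synthesis, was at 1.98 ± 0.34 in droughted tolerant and -2.44 ± 0.34 in droughted susceptible plants. The peroxidase cevi16 was at -4.23 ± 0.56 and GSH1, which catalyses the first step of glutathione synthesis, at -1.74 ± 0.20 in droughted tolerant plants. In droughted susceptible plants APX2-c was higher by at least 2.37, and the probe set shared by GMP, a GDP-mannose pyrophosphorylase of ascorbate synthesis, and LOC778309 was at -2.39 ± 0.16. In heated tolerant plants the metallothionein MTA was at 2.44 ± 0.42, the alternative oxidase LOC543825 at -1.30 ± 0.19 and CrtR-b2 at -1.29 ± 0.12. In heated susceptible plants the metallothionein probe set MT3-b was at 1.75 ± 0.13, APX2-b at 1.02 ± 0.31, the superoxide-producing oxidase Wfi1 at -1.38 ± 0.10 and CrtR-b2 at -0.53 ± 0.12.

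**Figure D5:**
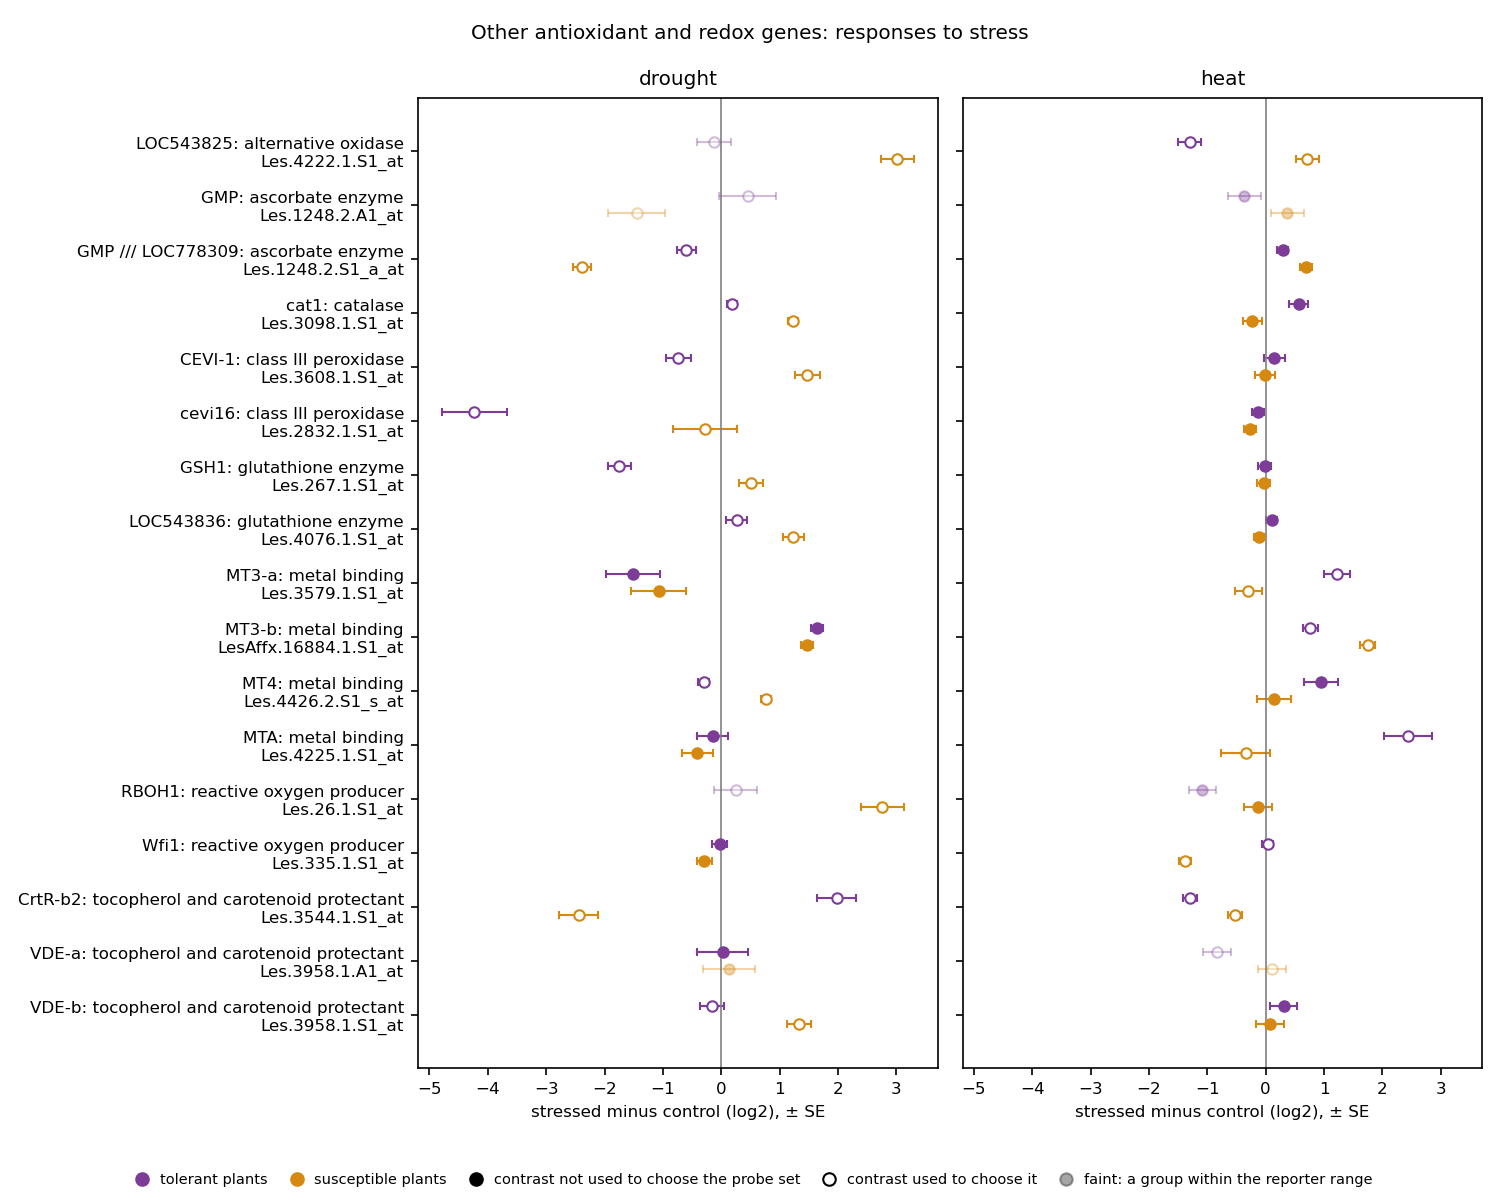
Stressed minus control on a log2 scale, with its standard error, for the other antioxidant and redox probe sets under drought and under heat, with tolerant plants in purple above susceptible plants in orange. Open points belong to contrasts that chose the probe set, and faint points to groups within the reporter range. cevi16 reaches -4.23 in droughted tolerant plants, and GSH1 lies near 0 in both genotypes under heat.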

How the data were processed

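The deposited expression values are log2 signals per probe set, which per the submitters' processing notes were made with RMA 1.0 in Affymetrix Expression Console. The authors also deposited fold changes of stressed over control means as linear ratios, per the file headers only where the interaction of genotype and treatment had a corrected p under 0.05 and the fold reached 2. Of 10209 probe sets, 108 AFFX controls were left out and 63 reporter probe sets gave the background. Each experiment was fitted as 4 group means over 12 arrays with limma 3.58.1 in R 4.3.3, with Benjamini-Hochberg adjustment across 10101 probe sets and calls at adjusted p under 0.05. The fit was tested on simulated data, where it missed more of the smaller changes in the drought than in the heat experiment, and the criterion for passing was set after a first result was seen. A result that was not called therefore does not show an absence of change. The simulation gave all groups the same spread for a probe set, so it cannot show how the fit handles unequal spreads. Errors of differences are standard errors of the fit, which uses 1 spread for all 4 groups although tolerant replicates varied more (median SD 0.165 to 0.393, against 0.0743 to 0.108 in susceptible groups).

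The enzymes and lists were chosen with earlier results of these data known. All probe sets meeting the selection were named. From the antioxidant list, up to 2 of the largest called increases and 2 of the largest called decreases per comparison were named, and cat1, MT4, RBOH1 and 2 further APX2 or APX1 and APX2 probe sets were chosen after their values were seen. So were the exclusion of cevi19 and cevi57, the RNA integrity covariate and the reporter rule, by which a difference is only a bound if 2 or more arrays in its dimmer group failed to exceed the reporters' percentile 95. For likeness, the 3 most correlated named genes were taken. Genes carry the symbols of the authors' deposited tables or, where these give a LOC number that RefSeq has since named (SODCP.2, MT3, MT4 and VDE among them), the RefSeq symbol. All 5 were found in the RefSeq gene table, which was also used for the order of APX1 and APX2. No sequences were used here. Replicate numbers were not treated as pairs in the main fit. Same-numbered arrays deviated together at -0.127 to 0.115 in the drought experiment, with 1 of 18 pairs over 0.1. In the heat experiment the range was -0.339 to 0.36, with 8 of 18 pairs over 0.1. The heat values thus do not show that pairing was absent, and the replicate number as a block was an alternative fit.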

Additional observations from a re-analysis of the deposited data

Results flagged for a closer look

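Tolerant and susceptible plants responded to stress by different amounts in these enzymes, given as the response of tolerant minus that of susceptible plants on the log2 scale. Under drought it was -2.94 for FESOD, -0.99 for SODCP.2, -1.74 for APX1-a, -1.42 for APX1-b and 3.13 for BI-GST/GPX. Under heat it was -1.16 for DHAR1. These 6 values had chosen the probe sets and are a description, with no test. DHAR1 under drought, at 0.92, had not been chosen on that contrast (limma, adjusted p = 0.0331), and its call depended on single arrays.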

How the results depend on the processing

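Of 30 tested results for these enzymes, 14 kept their direction and side of the threshold in every alternative. The alternatives were limma fits with repeated quantile normalization, arrays centred on their medians, the dimmest 25 percent of probe sets left out, only the 6 arrays of a genotype, array weights (a fit that stopped before full convergence), the replicate number as a block, a covariate for RNA integrity, added once the data had been seen, and each array left out in turn. The cause of the changes below was not tested.

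The difference of heat responses became called for FESOD without the dimmest probe sets (0.52), with array weights (0.42) and with the covariate (0.54), and with array weights also for SODCP.2 (0.37), APX1-a (-0.23) and BI-GST/GPX (0.26). The heat response of SODCP.2 in susceptible plants became called from 6 arrays (-0.26) and with array weights (-0.28), while its heat genotype difference was lost after centring (-0.44) and with the covariate (-0.52). For APX1-a, the heat response of tolerant plants was lost after quantile normalization (0.15), centring (0.0004), from 6 arrays (0.28), with the replicate block (0.28) and with the covariate (0.25), and its heat genotype difference became called after quantile normalization (0.23), centring (0.29), without the dimmest probe sets (0.17) and with array weights (0.20). For APX1-b, the heat response of tolerant plants was lost from 6 arrays (-0.85) and with the covariate (-0.73), that of susceptible plants turned to 0.057 with the covariate, and the heat genotype difference was lost with the replicate block (0.52) and the covariate (0.19). DHAR1 lost the difference of drought responses with array weights (0.87) and the covariate (0.84), and the heat genotype difference with the covariate (0.90).

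The number of probe sets called also depended on the fit. From 6 arrays under drought it became 3109 instead of 5110 in tolerant and 7502 instead of 4324 in susceptible plants. From 6 arrays under heat it became 3174 instead of 5564 in tolerant and 4431 instead of 2150 in susceptible plants. With array weights it became 7481 for susceptible plants under drought and 5480 under heat. The same weights gave 7197 instead of 2786 for the difference of heat responses. With the covariate the genotype difference was called for 4682 instead of 7405 in drought and 1310 instead of 5808 in heat. The replicate block changed no other call of these enzymes.

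With each array left out, the difference of heat responses ranged over 0.42 to 0.61 for FESOD and 0.24 to 0.95 for SODCP.2. SODCP.2 ranged over -0.021 to 0.69 in heated tolerant plants and -0.70 to -0.35 for the heat genotype difference. APX1-a ranged over 0.21 to 0.33 in heated tolerant plants, 0.35 to 0.44 in heated susceptible plants and 0.15 to 0.21 for the heat genotype difference, and APX1-b over -1.04 to -0.48 in heated tolerant plants and 0.34 to 0.62 for the heat genotype difference. The difference of drought responses of DHAR1 ranged over 0.73 to 1.13, and the drought genotype difference of BI-GST/GPX over -0.013 to 0.10. The number of probe sets called for the difference of heat responses ranged over 1794 to 4512, with 1794 without heated susceptible replicate 3, 1855 without unheated susceptible replicate 1 and 4512 without unheated tolerant replicate 2.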
